A study of Canis lupus familiaris with 13 samples.

Results

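The genes described here are enzymes and regulators of cholesterol synthesis, taken from RNA sequencing of dog thigh muscle sampled without and with insulin. They were chosen by name from a list of 8 symbols: SREBF2, INSIG1, HMGCS1, IDI1, FDFT1, SQLE, CYP51A1 and MSMO1. Of these, 7 were found in the table of 30951 genes and all 7 passed the filter on low counts that left 14629 genes. IDI1 is not analysed here. The list holds regulators and enzymes but no lipoprotein receptor. MSMO1 stood in 2 rows with different identifiers, and the row with more counts was used.

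Biopsies of the biceps femoris came from 4 wild-type dogs aged 9 to 10 months, and every library comes from these animals without any other genotype or agent named. Basal libraries carry sample number 0 and come from dogs 2, 3 and 4 (n = 3). The 10 insulin-stimulated libraries are sample 1 (n = 4) and sample 2 (n = 4) of dogs 1 to 4 and sample 3 (n = 2) of dogs 1 and 2. The labels give neither the insulin dose, nor the time of sampling, nor what the sample number stands for. Dog 1 had no basal library. Libraries of 1 dog share an animal, so the dogs and not the libraries are the independent units.

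Cells make cholesterol from acetyl-CoA through mevalonate, isoprenoids and squalene, and then remodel the sterol ring. SREBF2 encodes SREBP-2, a transcription factor held in the membrane of the endoplasmic reticulum. When membrane sterol is low, SREBP-2 is carried to the Golgi, cut free by proteases and sent to the nucleus, where it switches on genes for most steps of the pathway. INSIG proteins hold it back when sterol is plentiful. In muscle the same pathway also supplies isoprenoids, for example for ubiquinone and for the lipid anchors of small GTPases. Insulin is best known in this field for inducing SREBP-1, the related factor of fatty acid synthesis.

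The libraries held 45200416 to 81948641 counts. ACTA1, the actin of skeletal muscle, took 10.4% to 18.4% of them, and 13 of 13 listed skeletal muscle markers were found, with a summed level of 263795 to 438500 counts per 1000000 counts of the library (CPM). The highest of these values, for both measures, were those of dog 1 sample 2. In bulk tissue, fewer cells of a type and less RNA per cell cannot be told apart. CPM were computed on the library total after TMM scaling. They are not per gene length, so levels are compared between libraries and not between genes.

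No gene of the set passed the test of insulin against basal muscle. In edgeR's quasi-likelihood test with dog as a block, 0 of 7 had an adjusted p under 0.05, against 20 of all 14629 genes (0.137%), and 0 of 7 had an unadjusted p under 0.05, against 4.12% of all genes. DESeq2 also gave 0 of 7 by either measure. The fitted log2 fold changes lay between -0.06 for CYP51A1 and 0.25 for SQLE, with a median of 0.06 beside a median of -0.0013 over all genes tested. Every adjusted p was 1. The ranges of the 3 basal and the 10 insulin libraries overlapped in 7 of 7 genes, and they failed to overlap in 0.93% of all genes tested, so overlap is what nearly any gene showed.

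**Figure D1:**
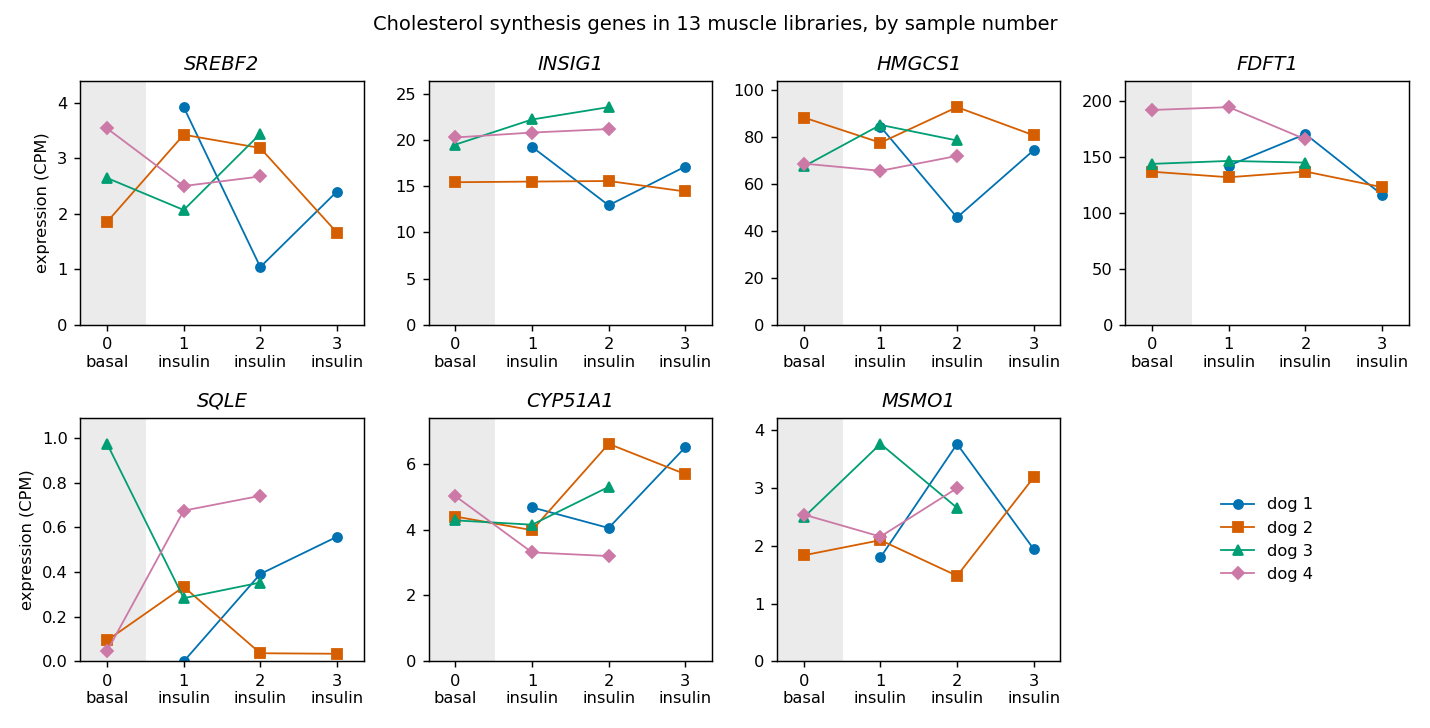
Expression in CPM (vertical axis, from 0) of the 7 genes in each of the 13 libraries, by sample number (horizontal axis; 0 is basal, shaded, and 1 to 3 are insulin), with the libraries of a dog joined by a line. The basal points lie inside the range of the insulin points except for SQLE, where dog 3 basal is the highest of all at 0.974 CPM, and dog 1 sample 2 is the lowest library for SREBF2, INSIG1 and HMGCS1.

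SREBF2 (ENSCAFG00000001013), the transcription factor of the pathway, had low values in all libraries. In dog 2 it had 1.85 CPM in the basal library and 3.42, 3.18 and 1.66 CPM in insulin samples 1, 2 and 3. In dog 3 it had 2.64 CPM in the basal library and 2.07 and 3.44 CPM with insulin. In dog 4 the basal library held 3.53 CPM and the insulin libraries 2.50 and 2.67 CPM, and in dog 1 samples 1, 2 and 3 held 3.92, 1.04 and 2.40 CPM. Insulin libraries were thus on both sides of basal, above it in 2 of 3 in dog 2 and below it in both of dog 4. The means were 2.68 ± 0.841 CPM (SD, n = 3) in basal and 2.63 ± 0.889 CPM (n = 10) in insulin libraries. The fitted log2 fold change was 0.06 ± 0.37 (SE), with a 95% interval from -0.74 to 0.86, which leaves room for a change of 0.597-fold to 1.81-fold.

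INSIG1 (ENSCAFG00000005081) retains SREBP-2 in the endoplasmic reticulum and is itself a target of that factor. It had 15.4 CPM in the basal library of dog 2, and 15.5, 15.6 and 14.4 CPM in insulin samples 1, 2 and 3 of that dog. In dog 3 it had 19.5 CPM in basal and 22.2 and 23.6 CPM in insulin libraries, and in dog 4 it had 20.3 CPM in basal and 20.8 and 21.2 CPM in insulin libraries. In dog 1 samples 1, 2 and 3 held 19.3, 12.9 and 17.1 CPM. Within dogs 2 and 4 the values differed little, while dog 3 was somewhat higher with insulin. The means were 18.4 ± 2.60 CPM (n = 3) in basal and 18.3 ± 3.64 CPM (n = 10) in insulin libraries. The fitted log2 fold change of INSIG1 was 0.08 ± 0.15 (95% interval -0.24 to 0.40).

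INSIG1 differed more between dogs than within them. All 7 libraries of dogs 1 and 2 held 12.9 to 19.3 CPM and all 6 of dogs 3 and 4 held 19.5 to 23.6 CPM, a split that was noticed in the data and carries no test. On the log2 scale, the SD of the dog means of samples 1 and 2 was 0.28 for INSIG1, and the SD of libraries within dogs was 0.16. FDFT1 had values of 0.18 between and 0.15 within dogs. The SD of dog means also holds part of the spread within dogs, so these near values do not show which was larger for FDFT1. In the other genes the spread within dogs was the larger, for example 0.58 within and 0.28 between dogs for SREBF2 and 0.42 within and 0.35 between dogs for MSMO1.

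HMGCS1 (ENSCAFG00000018572) makes HMG-CoA, the precursor of mevalonate, in the cytosol. It had 88.1 CPM in the basal library of dog 2 and 77.4, 92.6 and 80.6 CPM in insulin samples 1, 2 and 3. In dog 3 it had 67.3 CPM in basal and 85.0 and 78.4 CPM in insulin libraries. In dog 4 it had 68.5 CPM in basal and 65.5 and 71.8 CPM in insulin libraries, and in dog 1 insulin samples 1, 2 and 3 held 84.3, 45.6 and 74.2 CPM. Both insulin libraries of dog 3 were above its basal library, those of dogs 2 and 4 lay on both sides of basal, and the lowest level of all was in dog 1 sample 2. Basal libraries averaged 74.7 ± 11.7 CPM (n = 3) and insulin libraries 75.5 ± 12.9 CPM (n = 10). With a log2 fold change of 0.06 ± 0.18, the 95% interval was -0.32 to 0.44.

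FDFT1 (ENSCAFG00000007948) encodes squalene synthase, which joins farnesyl units in the first step that leads only to sterols. Its basal libraries had 137, 144 and 192 CPM in dogs 2, 3 and 4. Under insulin it had 132, 137 and 123 CPM in dog 2, 146 and 145 CPM in dog 3, and 194 and 166 CPM in dog 4. Dog 1 had 142, 170 and 116 CPM in insulin samples 1, 2 and 3. Each insulin library of dogs 2 and 3 was near the basal library of its dog, and the 3 libraries of dog 4 were above all 7 of dogs 2 and 3. The means were 157 ± 30.0 CPM (n = 3) in basal and 147 ± 23.6 CPM (n = 10) in insulin libraries. The log2 fold change of -0.05 ± 0.14 had the narrowest interval of the 7 genes (-0.35 to 0.26, or 0.783-fold to 1.20-fold).

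The remaining enzymes act on squalene and on the sterol ring. SQLE (ENSCAFG00000001056), squalene epoxidase, is a rate-limiting oxygen-dependent step. Its counts were 6 in the basal library of dog 2 and 25, 2 and 2 with insulin, 66 in the basal library of dog 3 and 17 and 19 with insulin, and 2 in the basal library of dog 4 and 30 and 45 with insulin. In dog 1 samples 1, 2 and 3 had 0, 26 and 37 counts, and the count of 0 allows up to 0.0454 CPM (3 counts, counting error only). Insulin libraries were above basal in dog 4 and below it in dog 3. Dog 3 basal, the library with most SQLE at 0.974 CPM, also had the highest summed level of fibroblast and matrix markers, 2961 CPM against 335 to 1205 CPM in the insulin libraries, and of adipocyte markers, 86.7 CPM against 20.8 to 49.6 CPM. It was the highest library for 6 of the 10 lists of other cell types, which also include macrophages (49.6 CPM against 7.95 to 33.8 CPM with insulin), neutrophils (74.3 against 23.5 to 65.7 CPM), endothelium (349 against 80.0 to 296 CPM) and Schwann cells (75.7 against 41.9 to 65.9 CPM), and the lowest for skeletal muscle markers (263795 CPM). The part of this in the SQLE level was not tested. The fitted log2 fold change of 0.25 ± 1.02 had a 95% interval from -1.95 to 2.46, or 0.259-fold to 5.49-fold, the widest of the 7 genes. The SD of SQLE within dogs was 1.59 on the log2 scale.

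CYP51A1 (ENSCAFG00000001945), the lanosterol demethylase, had 4.40, 4.28 and 5.01 CPM in the basal libraries of dogs 2, 3 and 4. Under insulin it had 3.98, 6.60 and 5.68 CPM in samples 1, 2 and 3 of dog 2, 4.15 and 5.30 CPM in dog 3, and 3.31 and 3.20 CPM in dog 4. Dog 1 had 4.67, 4.05 and 6.50 CPM. The insulin libraries of dog 4 were both below basal, and those of dogs 2 and 3 lay on either side of it. The means were 4.56 ± 0.393 CPM (n = 3) in basal and 4.74 ± 1.23 CPM (n = 10) in insulin libraries. The log2 fold change was -0.06 ± 0.24 (95% interval -0.58 to 0.46). Without dog 4 sample 0 it was 0.23 and without the whole of dog 4 it was 0.23, and with all dogs but no dog block it was 0.057, so the sign of this small difference turned with dog 4 and with the block. No value passed the test.

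MSMO1 (ENSCAFG00000047802), the sterol methyl oxidase that acts after CYP51A1, had 1.84, 2.49 and 2.54 CPM in the basal libraries of dogs 2, 3 and 4. Under insulin it had 2.10, 1.48 and 3.18 CPM in dog 2, 3.77 and 2.66 CPM in dog 3, and 2.16 and 3.00 CPM in dog 4, with 1.80, 3.76 and 1.94 CPM in dog 1. Basal values lay inside the range of the insulin values. The means were 2.29 ± 0.394 CPM (n = 3) in basal and 2.59 ± 0.815 CPM (n = 10) in insulin libraries. The log2 fold change was 0.23 ± 0.31 (95% interval -0.43 to 0.89). The other MSMO1 row (ENSCAFG00000011607) held 151 counts over all libraries against 1965 in the row used. Reads of such copies may be split between rows, and with both rows summed the log2 fold change was 0.24.

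**Figure D2:**
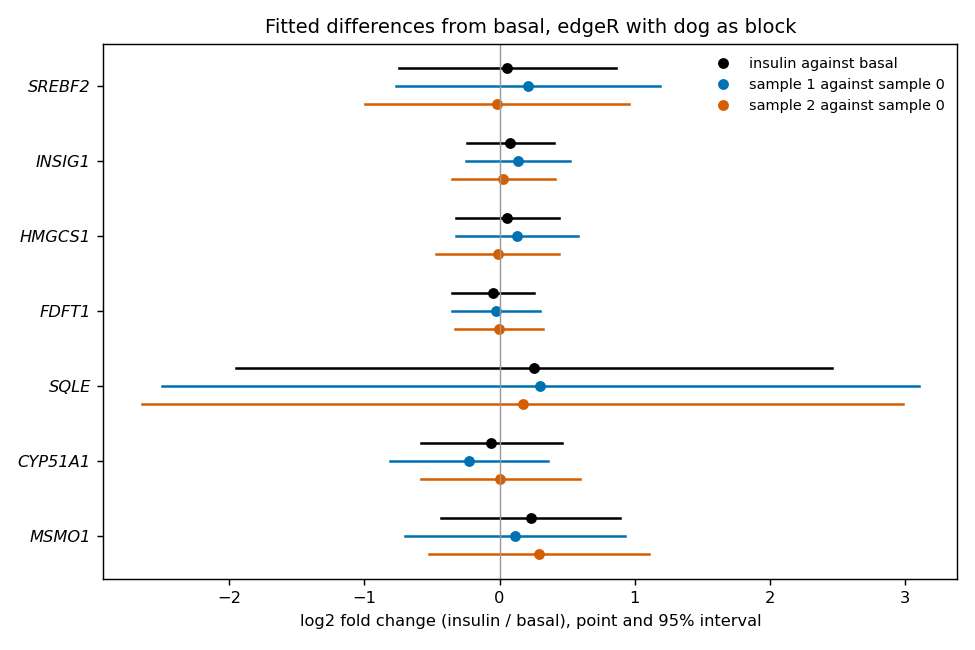
Fitted log2 fold changes against basal (horizontal axis; points) with 95% intervals (lines) for the 7 genes, from insulin against basal (black) and from samples 1 (blue) and 2 (orange) against sample 0. Each of the 21 intervals includes 0, and those of SQLE are the widest, from -1.95 to 2.46 in insulin against basal.

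Within the dogs that had a basal library, directions were mixed. Comparing the mean of a dog's insulin libraries with its basal library on the log2 CPM scale, only MSMO1 of the 7 genes had the same sign in dogs 2, 3 and 4 (0.22, 0.34 and 0.0027), against 24.9% of all genes tested. SREBF2 differed by 0.50, 0.01 and -0.45 and CYP51A1 by 0.27, 0.13 and -0.62. SQLE had the widest spread, at -0.09, -1.53 and 3.22. HMGCS1 and INSIG1 were highest relative to basal in dog 3, by 0.28 and 0.23.

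**Figure D3:**
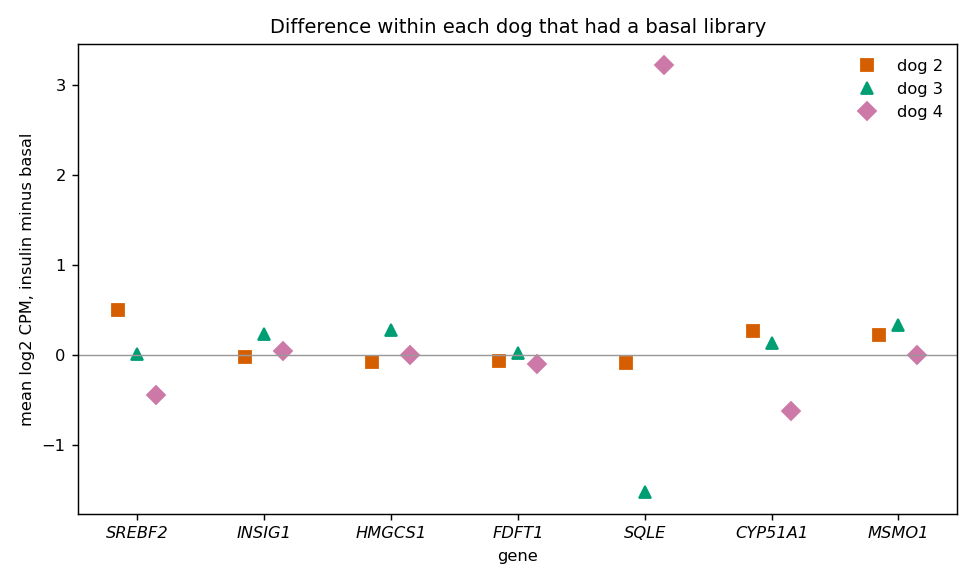
Mean log2 CPM of the insulin libraries minus log2 CPM of the basal library (vertical axis) for each gene (horizontal axis) in dogs 2 (squares), 3 (triangles) and 4 (diamonds). Points of every gene but MSMO1 lie on both sides of 0, and the points of FDFT1 lie between -0.10 and 0.02.

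The sample numbers were then compared with each other, with dog again a block. In sample 1 against sample 0, 0 of 7 genes passed by adjusted p (0% of all genes) and 0 of 7 by unadjusted p (2.99% of all genes). Log2 fold changes ran from -0.23 ± 0.27 for CYP51A1 to 0.30 ± 1.27 for SQLE. INSIG1 was higher and CYP51A1 lower than basal in 3 of 3 dogs, so that 2 of 7 genes had a single direction, against 21.3% of all genes. The INSIG1 differences were 0.01, 0.19 and 0.04 in dogs 2, 3 and 4, and those of CYP51A1 were -0.14, -0.04 and -0.59.

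In sample 2 against sample 0, 0 of 7 genes passed by adjusted p, against 0.0479% of all genes, and 0 of 7 by unadjusted p, against 4.95%. The values ran from -0.02 ± 0.44 for SREBF2 to 0.29 ± 0.37 for MSMO1, and the lowest adjusted p by edgeR was 0.956. HMGCS1 and INSIG1 were above basal in 3 of 3 dogs, which makes 2 of 7 genes with a single direction, against 23.9% of all genes. The differences of HMGCS1 were 0.07, 0.22 and 0.07, whereas its fitted value over all 4 dogs was -0.014, and 0.11 without dog 1 sample 2. Both comparisons share the basal libraries.

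Sample 2 was compared with sample 1 in all 4 dogs, which tests directly whether the insulin samples differ. Here 0 of 7 genes passed by adjusted p (0% of all genes) and 0 of 7 by unadjusted p (3.38% of all genes), with log2 fold changes from -0.23 ± 0.40 for SREBF2 to 0.23 ± 0.24 for CYP51A1. The sign of 5 of the 7 genes turned without dog 1 sample 2: SREBF2 had 0.21, HMGCS1 0.063, INSIG1 0.022, FDFT1 -0.088 and MSMO1 -0.25. Without dog 1 sample 1 the sign of SREBF2 (0.038), HMGCS1 (0.012) and FDFT1 (-0.020) turned. In sample 3 against the mean of samples 1 and 2, which rests on dogs 1 and 2, 0 of 7 genes passed by adjusted p (0% of all genes) and 0 of 7 by unadjusted p (4.59% of all genes). The values ran from -0.38 ± 0.48 for SREBF2 to 0.39 ± 0.29 for CYP51A1.

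HMGCS1 and INSIG1 had the most similar profiles of the 21 pairs of genes, while both had negative r with FDFT1 (-0.56 and -0.50) and MSMO1 (-0.51 and -0.55). With each library set against the mean of samples 1 and 2 of its dog, their log2 CPM had r = 0.93 and rho = 0.77 over 13 libraries. Without dog 1 sample 2, where both were lowest, the values were r = 0.74 and rho = 0.63. The r of HMGCS1 and INSIG1 with FDFT1 was then 0.35 and 0.45, and with MSMO1 0.099 and -0.052. Their negative values over 13 libraries thus rested largely on that library. The median r over the 21 pairs was -0.30, with 7 pairs positive, and the lowest was -0.77 for SREBF2 and MSMO1. Without dog 1 sample 2 the median was -0.098, with 9 pairs positive, and the lowest was -0.68 for SQLE and FDFT1. These correlations are descriptions over libraries that come from 4 dogs and share depth and scaling. Set against their own mean, samples 1 and 2 of a dog mirror each other, so the 13 points are not independent and an odd library counts in both.

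Among 8265 other genes with a symbol and a mean log2 CPM of at least 1, the profiles most like the mean of the 7 were those of SPECC1 (r = 0.85, rho = 0.92), MTCH1 (r = 0.82, rho = 0.90), PHLDB2 (r = 0.82, rho = 0.85), PAK1 (r = 0.81, rho = 0.68) and PIGL (r = 0.80, rho = 0.73) over 13 libraries. This ranking depended on single inputs. The mean was not scaled per gene, so SQLE, with 0 to 66 counts, weighed most in it. Its SD within dogs was 1.59 on the log2 scale, against at most 0.58 (SREBF2) in the other members. Without dog 1 sample 2 only MTCH1 was again among the first 5, and with SQLE left out of the mean 0 of the 5 were.

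The wider pathway was read through 5 lists that cover enzymes up to squalene, enzymes from squalene to cholesterol, SREBP processing and sterol sensing, uptake and transport of cholesterol, and its efflux and esterification. They held 48 further genes in the table, all of which were tested. In insulin against basal 0 were higher and 0 lower by edgeR's adjusted p, and 0 had an unadjusted p under 0.05. The shares of all genes tested were 0.137% by adjusted p and 4.12% by unadjusted p. The median log2 fold changes of the lists, with members counted, were 0.03, -0.04, 0.01, 0.01 and 0.09 in that order. The 4 other genes of lowest p were ERLIN2, an endoplasmic reticulum protein that takes part in the degradation of sterol-regulated proteins (0.41 ± 0.19), NR1H3, the oxysterol receptor LXR alpha (0.54 ± 0.27), MVK, mevalonate kinase (0.32 ± 0.20), and SREBF1 (0.49 ± 0.31), each with an adjusted p of 1.

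**Figure D4:**
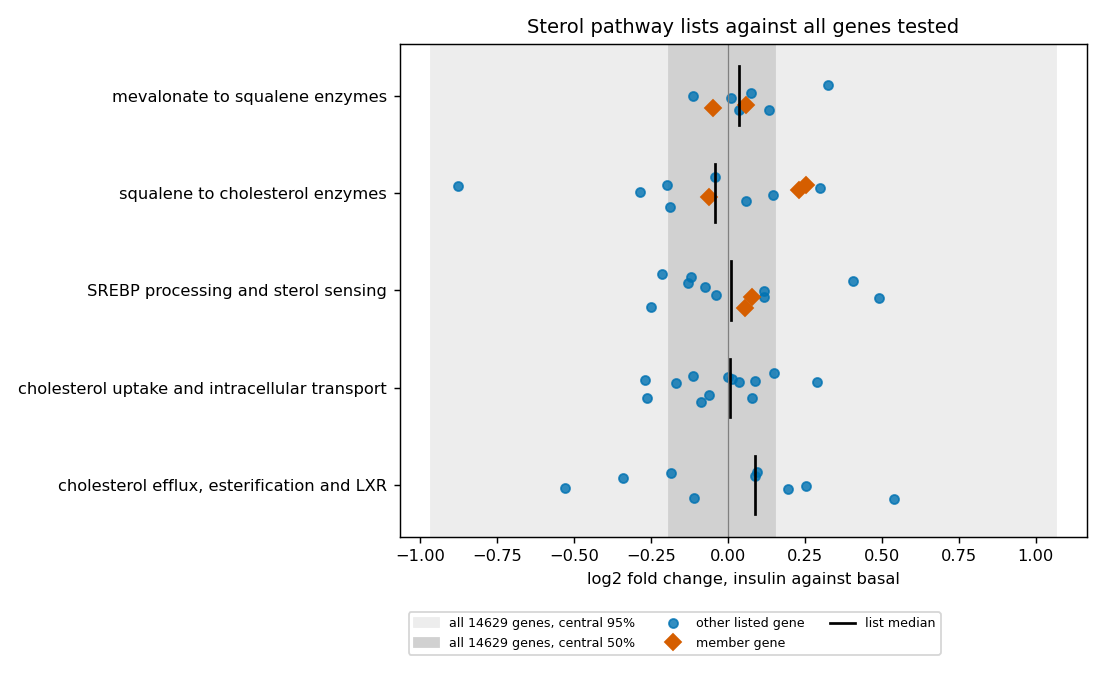
Log2 fold change of insulin against basal (horizontal axis) for genes of the 5 lists (rows), with members of the set as orange diamonds, other listed genes as blue points and the list median as a black bar; grey bands hold the central 50% and 95% of all 14629 genes. The list medians lie between -0.04 and 0.09, inside the central 50% band (-0.19 to 0.15), and 2 listed genes that are not reported here are not drawn.

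By sample number, 0 of the 48 further genes passed by adjusted p in any of the comparisons, and 2, 3, 4 and 3 had an unadjusted p under 0.05 in samples 1 and 2 against 0, sample 2 against 1 and sample 3 against samples 1 and 2. These are 4.17%, 6.25%, 8.33% and 6.25% of the 48, beside 2.99%, 4.95%, 3.38% and 4.59% of all genes. In sample 1 against sample 0, SREBF1 had 0.79 ± 0.33, ERLIN2 0.48 ± 0.22, NR1H3 0.63 ± 0.32 and GRAMD1A, a sterol carrier at membrane contacts, 0.35 ± 0.20 (adjusted p = 1 for each). ERLIN2 had 4.08, 4.06 and 3.60 CPM in the basal libraries of dogs 2, 3 and 4. The 10 insulin libraries of all sample numbers held 4.19 to 6.96 CPM, the lowest being dog 2 sample 3. This difference did not pass the test. Basal and insulin ranges failed to overlap in 0.93% of all genes tested. ERLIN2 was named for its low p, so the gap is no separate support.

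In sample 2 against sample 0, the 4 further genes of lowest p were NCEH1, ABCA1, NPC1 and MVK, and 0 of them passed. The value of NCEH1, a cholesteryl ester hydrolase, was -0.87 ± 0.28 (adjusted p = 0.754), ABCA1, the cholesterol exporter, had -0.99 ± 0.35 (adjusted p = 0.861), and NPC1, which moves cholesterol out of lysosomes, had -0.64 ± 0.25 (adjusted p = 0.949). In dog 2 NCEH1 had 11.4 CPM in the basal library and 14.9, 5.87 and 11.3 CPM in samples 1, 2 and 3. In dog 3 it had 17.5, 16.9 and 15.9 CPM and in dog 4 20.8, 14.3 and 9.09 CPM in samples 0, 1 and 2. NCEH1 was lowest in sample 2 in each of these dogs, and also in dog 1, where samples 1, 2 and 3 had 9.57, 3.16 and 8.16 CPM. NCEH1 was named for its low p in this comparison, so its low level in sample 2 is no separate support. The share of all genes with this pattern was not counted. In sample 2 against sample 1, which uses the same sample 2 libraries, NCEH1 had -0.91 ± 0.25 (adjusted p = 0.902). ABCA1 was not alike in all dogs. It had 13.2 and 4.48 CPM in samples 0 and 2 of dog 2 and 11.9 and 5.26 CPM in those of dog 4, but 8.71 and 9.72 CPM in those of dog 3. Without dog 2 its value was -0.66. NPC1 had 16.7 and 13.4 CPM in samples 0 and 2 of dog 2, 42.8 and 23.5 CPM in those of dog 3 and 27.8 and 23.4 CPM in those of dog 4. Without dog 3 sample 0, the highest library for 6 of the 10 lists of other cell types, the value of NPC1 was -0.49. MVK, a synthesis enzyme, had the opposite sign in the fit, with 0.46 ± 0.22 (adjusted p = 0.955). By dog its differences from basal in log2 CPM were -0.01, 0.20 and 0.85 in dogs 2, 3 and 4, so the sign was not shared by all.

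Dog 1 sample 2, the library with most ACTA1, was the lowest of all 13 for NCEH1, ABCA1 and NPC1, and without it their values in sample 2 against sample 0 were -0.76, -0.85 and -0.49. Blood cell markers had negative medians in this comparison, and 0 passed by adjusted p. Of the 5 neutrophil markers tested 4 had a negative value with an unadjusted p under 0.05 (median -1.47), as had 2 of 5 red blood cell markers (median -2.10) and 0 of 6 macrophage and monocyte markers (median -0.60). Over all genes tested, 4.95% had an unadjusted p under 0.05 in either direction. Their summed levels overlapped between samples 0 and 2, at 31.9 to 74.3 and 25.1 to 39.1 CPM for neutrophils, 34.9 to 45.8 and 39.6 to 44.6 CPM for red blood cells, and 12.4 to 49.6 and 7.95 to 27.7 CPM for macrophages. In sample 1 against sample 0 the marker medians were -1.30 for neutrophils, -1.89 for red blood cells and -0.26 for macrophages and monocytes. There NCEH1, ABCA1 and NPC1 had 0.04, -0.23 and 0.05. In sample 2 against sample 1 these medians were 0.05, -0.21 and -0.34, and these genes had -0.91, -0.77 and -0.69. Lower medians there were those of smooth muscle and pericytes (-0.74), endothelium (-0.54) and Schwann cells (-0.40). The part of any of these cells in the values of NCEH1, ABCA1 and NPC1 was not tested.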

How the data were processed

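The table of raw read counts per gene and library, deposited by the authors, was used for all tests. A normalized signal, deposited beside it by the authors, is the count divided by a size factor per library, and it served only to check columns. Per the submitters' processing notes, Bowtie 0.12.2 and CanFam3.1 were used. The counting program, annotation and strand setting are not given in the sources used here, and the library kit does not mark strand, so overlapping genes cannot be told apart. The series' design line describes another tissue and species and was not used.

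Counts were filtered (filterByExpr), scaled (TMM) and fitted in R 4.3.3 with edgeR 4.0.16 (robust quasi-likelihood, dog as block), with Benjamini-Hochberg adjustment over 14629 genes and a threshold of 0.05. The scripts were tested on simulated data, without simulated differences between dogs. In insulin against basal, 29.6% of log2 changes of size 1 and 70.5% of size 2 passed. In sample 1 against sample 0 these shares were 13.1% and 60.6%. A gene that did not pass may thus still have changed. SE and 95% intervals came from the same fit. The block lets dogs differ in level but not in their difference from basal. Insulin libraries of 1 dog therefore count singly in the SE, and the intervals are not intervals over dogs. DESeq2 1.42.0, other scaling and filters, no block, and leaving out libraries or dogs were alternatives. Per the labels, a dog number marks the animal. Deviations from group means had a median r of 0.17 in 15 pairs of the same dog and -0.066 in 47 pairs of different dogs. Named pathway genes were the 4 of lowest p per comparison with basal and a mean log2 CPM of at least 0, and any that passed. Members and lists were chosen with earlier results of these data known. The values of 2 listed genes are not reported here.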

Additional observations from a re-analysis of the deposited data

Results flagged for a closer look

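Each of the 15 genes with values above was examined for a library far from the others among the sample 1, sample 2 and all insulin libraries. In 0 of the 45 groups was the gap of the highest or lowest library large enough to stand out, where chance alone gives about 1 in 20. The sample 1 and sample 2 libraries are also among all insulin libraries, so the 45 groups are not independent. Groups this small can hardly flag a library. Over all genes tested, dog 1 sample 2 had the lowest mean r of log2 CPM with the other libraries, 0.943. No gene of the set passed the test of sample 2 against sample 1, so the differences from basal in the insulin samples were not shown to differ.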

How the results depend on the processing

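Under every alternative run (RLE scaling, DESeq2, no filter, no replicate block, in insulin against basal also the insulin libraries summed per dog, and each library or dog left out), 0 of 7 genes passed in each of the 5 comparisons, and 0 had an unadjusted p under 0.05. Without the dog block 0 of 7 also passed in each. Among 747 alternative values of the 7 genes the lowest adjusted p was 0.456. The sign changed in 112 of them, and 27 values moved by more than 1 SE. Where a sign change came with such a move, the values were as follows. In insulin against basal CYP51A1 was 0.23 without dog 4, and -0.25 to 0.23 with single libraries left out. In sample 1 against sample 0 the ranges with single libraries left out were -0.37 to 0.044 for CYP51A1 and -1.09 to 1.84 for SQLE. In sample 2 against sample 1 they were -0.24 to 0.063 for HMGCS1, -0.25 to 0.40 for MSMO1 and -0.50 to 0.21 for SREBF2. Without dog 1 these were 0.086, -0.19 and 0.22, and SQLE without dog 2 was 1.23. In sample 3 against samples 1 and 2 the ranges were -0.49 to 0.76 for MSMO1 and -2.32 to 1.60 for SQLE, with -0.47 for MSMO1 without dog 2 and -2.09 for SQLE without dog 1. The cause was not tested. Over all genes, calls in insulin against basal numbered 20, and 3 to 140 under the alternatives. Sample 2 against sample 0 had 7 calls, and 0 to 141. The other comparisons had 0 calls, with 77, 96 and 77 by DESeq2 in sample 1 against 0, sample 2 against 1 and sample 3 against samples 1 and 2. The summed MSMO1 rows were added after seeing the data.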
